A study of Mus musculus with 11 samples.

Results

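The chemokine ligands are the small secreted proteins that draw leukocytes into a tissue. Here they are the genes whose symbol begins with Ccl, Cxcl, Cx3cl or Xcl followed by a number, which were 38 of the 52550 genes in the count table. Their mRNA was measured in colonic epithelial cells of RAG1 KO mice on the C57BL/6 background, in 6 mice on a fiber-free diet (FFD) and 5 mice on a diet with 7% cellulose as the only fiber (CD). Both groups carried the same Rag1 deletion, received the diet for 4 weeks and drank 1.5% dextran sulfate sodium (DSS), which injures the colonic epithelium, for 5 days, so no uninflamed mice enter the comparison. Neither sex nor age of these mice was analysed here. Every sample was 1 library from 1 mouse, with 10374154 to 27973285 reads counted in FFD mice and 20853535 to 28588266 in CD mice.

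Chemokines are sorted by the spacing of their first cysteines into the CC, CXC, C and CX3C families, and each acts on G protein-coupled receptors of leukocytes. CXC ligands with an ELR motif attract neutrophils through Cxcr2, the interferon-induced CXC ligands attract T and NK cells through Cxcr3, and CC ligands act on monocytes, eosinophils, dendritic cells or lymphocytes. In the gut the epithelium itself makes several of them, among them Ccl20, Ccl25, Ccl28, Cx3cl1 and the neutrophil attractants, many of which are induced through NF-kappaB. RAG1 KO mice lack T and B cells, so many of the usual target cells are missing while neutrophils, monocytes, macrophages, dendritic cells and innate lymphoid cells remain.

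The promoters of 3 neutrophil attractants and of Cxcl10 are shown because these attractants had positive log2 fold changes while Cxcl10 was the single ligand that fell. The sequences are the RefSeq windows on GRCm38.p6, here the 250 bases before the start of the gene, written 5′ to 3′ on the strand of the gene. Capitals mark matches to a kappaB motif (GGG, any 3 bases, then TTCC, on either strand, where matches on opposite strands of 1 site overlap by 9 bases) and, in Cxcl10, an interferon-stimulated response element (ISRE, GAAA, any 2 bases, then GAAA, on either strand), with no kappaB match overlapping an ISRE match.
Cxcl1, chr5:90890995-90891244, plus strand: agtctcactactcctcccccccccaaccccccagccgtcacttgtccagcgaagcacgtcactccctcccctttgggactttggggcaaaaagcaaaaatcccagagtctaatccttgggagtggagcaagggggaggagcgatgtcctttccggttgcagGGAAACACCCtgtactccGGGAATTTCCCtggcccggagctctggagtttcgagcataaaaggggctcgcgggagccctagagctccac
Cxcl2, chr5:90903649-90903898, plus strand: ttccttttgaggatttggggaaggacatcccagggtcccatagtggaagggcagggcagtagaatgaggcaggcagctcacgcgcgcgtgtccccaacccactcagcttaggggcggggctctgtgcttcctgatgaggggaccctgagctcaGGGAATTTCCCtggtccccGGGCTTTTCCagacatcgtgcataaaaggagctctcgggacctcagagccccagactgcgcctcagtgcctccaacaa
Cxcl3, chr5:90785851-90786100, plus strand: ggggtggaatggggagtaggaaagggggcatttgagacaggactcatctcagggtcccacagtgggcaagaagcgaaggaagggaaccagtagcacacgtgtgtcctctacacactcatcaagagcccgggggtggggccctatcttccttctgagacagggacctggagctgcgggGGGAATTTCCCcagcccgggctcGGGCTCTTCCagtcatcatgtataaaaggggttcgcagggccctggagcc
Cxcl10, chr5:92348890-92349139, minus strand: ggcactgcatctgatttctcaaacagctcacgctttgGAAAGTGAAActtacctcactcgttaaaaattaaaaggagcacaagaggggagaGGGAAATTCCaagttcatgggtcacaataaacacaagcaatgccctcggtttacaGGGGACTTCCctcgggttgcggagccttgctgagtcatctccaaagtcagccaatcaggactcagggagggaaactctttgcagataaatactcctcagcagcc

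Cxcl1, Cxcl2 and Cxcl3 each held the same 11 bases, GGGAATTTCCC, beginning 71, 97 and 73 bases before the start. Cxcl2 and Cxcl3 had a further match nearer the start, and Cxcl1 had one farther from it, on the minus strand. Cxcl10 held kappaB matches beginning 159 and 104 bases before the start and an ISRE match at 213 bases. RefSeq windows of 300 bases were on hand for 27 of the 38 ligands, some with several windows, and 7 of these ligands held a kappaB match in at least 1 window, as did 6.31% of all 27025 genes with a window. The other 3 with a match were Ccl1, Ccl9 and Ccl20. An ISRE match was present for 3 of the 27 ligands (Cxcl10, Ccl19 and Cxcl14) and for 3.99% of all genes with a window. A match describes these letters and is not evidence that a factor bound there.

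Values below are CPM, counts scaled to a common library size after TMM correction for composition. The FFD mice are given by their lowest, median and highest value and the CD mice by all 5 values in the order of their numbers. Fold changes are log2 of FFD over CD from the quasi-likelihood test of edgeR with standard errors (SE), and a gene passed where its Benjamini-Hochberg adjusted p over 15044 tested genes was under 0.05. Of the 38 ligands 25 had enough reads to be tested. In RNA of a whole cell preparation, fewer cells of a type and less RNA per cell cannot be told apart. The labels number the CD samples 1 and the FFD samples 2, so anything else shared by the samples of 1 number, such as a cage, cannot be told apart from the diet.

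The preparation held markers of other cells. The summed CPM of 15 epithelial markers was 21401 to 29703 in FFD mice and 17395 to 21330 in CD mice, and none of the 15 was at 0. The 19 macrophage and monocyte markers summed to 377 to 541 CPM in FFD mice and 266 to 343 CPM in CD mice, without overlap. The 14 neutrophil markers summed to 76.1 to 290 CPM in FFD mice and 29.5 to 76.4 CPM in CD mice, with a narrow overlap. Most of these sums came from Ctss and Cd14 and from Ly6g and Ltf, which epithelial cells can also express. Without these genes, a choice made after the values were seen, the sums were 32.4 to 55.4 CPM in FFD mice and 24.4 to 33.3 CPM in CD mice for macrophages and 5.89 to 15.1 CPM in FFD mice and 4.14 to 8.09 CPM in CD mice for neutrophils, and both overlapped. No list had a marker at 0 in all 11 mice. T and B cell markers summed to 2.62 to 4.71 CPM in FFD mice and 2.75 to 3.38 CPM in CD mice over 14 genes.

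Chemokine mRNA was dominated by 3 ligands. Ccl6, Ccl28 and Cx3cl1 together made up 81.6% to 88.2% of all chemokine ligand counts in FFD mice and 78.5% to 89.1% in CD mice. Summed over the 38 ligands, the level was 755 to 911 CPM in FFD mice and 572 to 678 CPM in CD mice, and the diets did not overlap. Without these 3 genes the sum was 91.1 to 161 CPM in FFD mice and 73.7 to 130 CPM in CD mice, and the ranges overlapped. These sums are a description and were not tested.

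To compare levels between genes, CPM were divided by the joint length of the annotated exons of protein-coding transcripts. On this scale Ccl6 had 260 ± 32.4 CPM per kilobase in FFD mice and 212 ± 34.7 in CD mice (SD, n = 6 and 5). Ccl28 had 48.2 ± 5.06 CPM per kilobase in FFD mice and 37.0 ± 3.70 in CD mice, and Cx3cl1 had 39.0 ± 7.47 in FFD mice and 22.3 ± 2.76 in CD mice. Cxcl5, with 15.2 ± 8.82 CPM per kilobase in FFD mice and 9.51 ± 6.11 in CD mice, and Cxcl1, with 12.1 ± 5.28 in FFD mice and 6.88 ± 2.10 in CD mice, came next, and their ranges of mean ± SD overlapped in both diets. Below them the means of Ccl9, Cxcl10, Cxcl9, Ccl8 and Ccl20 over both diets lay between 4.57 and 6.35 CPM per kilobase. Cxcl10 changed places in this order with the diet, at 3.90 CPM per kilobase in FFD mice and 8.78 in CD mice.

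**Figure D1:**
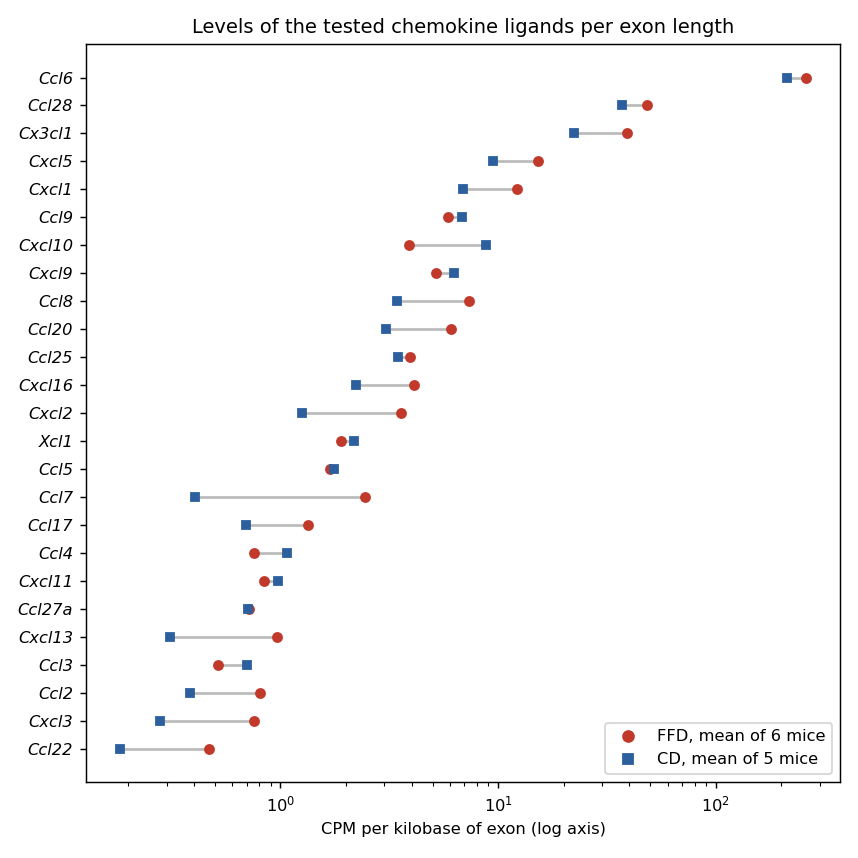
Level of each of the 25 tested chemokine ligands in CPM per kilobase of exon (log axis), as the mean of the 6 FFD mice (circles) and of the 5 CD mice (squares). Ccl6 stands highest, at 260 in FFD mice and 212 in CD mice, followed by Ccl28 and Cx3cl1, and a line joins the diets of 1 gene.

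Of the 25 tested ligands 10 passed the test, which is 40%, against 36.8% of all genes tested. The share of ligands that passed was thus near that of the whole table. The direction was uneven: 9 ligands were higher in FFD mice and 1 was lower, while 18.2% of all genes were higher and 18.6% lower. Cx3cl1, Cxcl1, Cxcl2, Cxcl13, Cxcl16, Ccl7, Ccl17, Ccl22 and Ccl28 rose and Cxcl10 fell. The median log2 fold change was 0.68 over the 25 ligands and -0.033 over all genes tested, and the median absolute log2 fold change was 0.80 over the ligands and 0.26 over all genes. At an unadjusted p under 0.05 there were 14 of 25 ligands and 46.7% of all genes. The diets did not overlap for 1 ligand of 25, Cx3cl1, as against 18.5% of all genes, 8.91% with the FFD mice above and 9.59% with them below.

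The number of ligands that passed differed with markers of other cells in the fit. With the mean log2 CPM of 24 macrophage, monocyte and neutrophil markers as a covariate in edgeR, 0 of 25 ligands passed after adjustment, 4 had an unadjusted p under 0.05 (Cx3cl1, Ccl20 and Ccl28 higher, Cxcl10 lower), and 2 of the 15044 genes passed. Diet accounted for 58.0% of the variance of this covariate, which was 0.65 log2 units higher in FFD mice. In this fit the log2 fold change was 0.59 for Ccl28, 0.91 for Cxcl1 and -1.24 for Cxcl10. Values of the other ligands that passed without the covariate were lower with it. They were 0.22 for Ccl17, 0.22 for Ccl22, 0.44 for Cxcl13, 0.47 for Cx3cl1, 0.53 for Cxcl16, 0.78 for Cxcl2 and 1.46 for Ccl7. The part of other cells in these results was not tested beyond this fit.

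**Figure D2:**
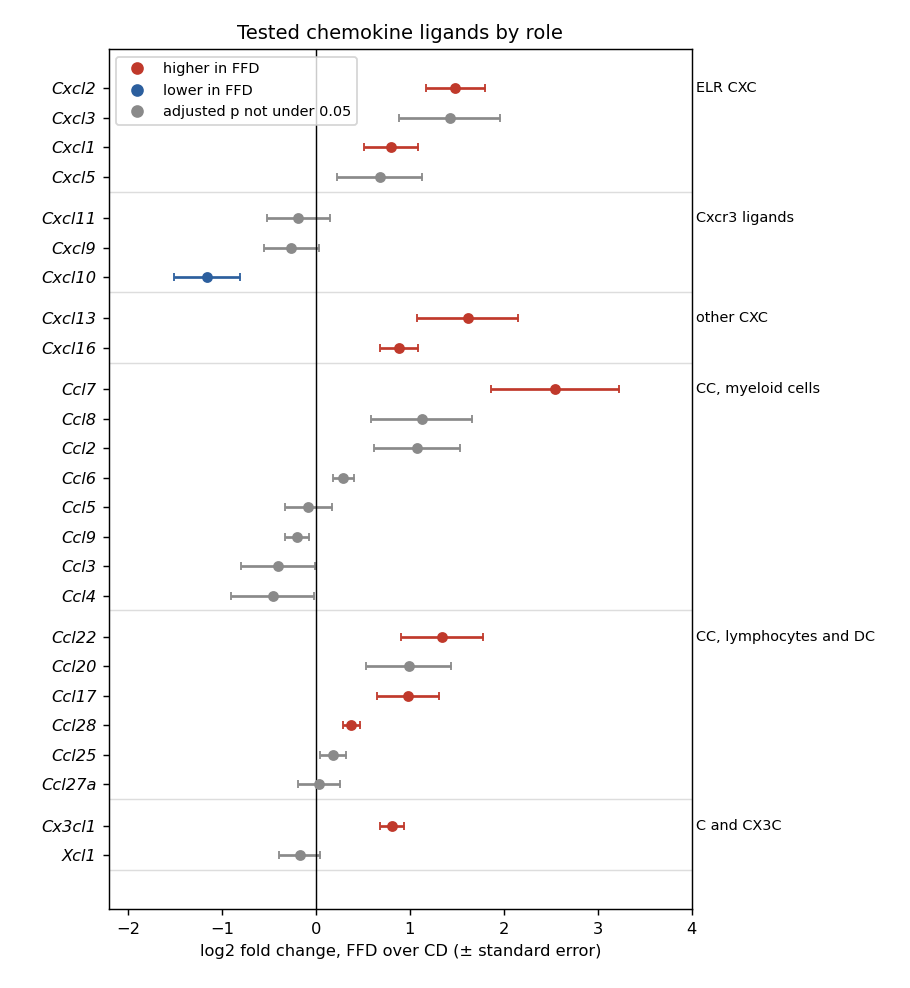
Log2 fold change (FFD over CD) with its standard error for the 25 tested chemokine ligands, grouped by role. Red marks the 9 ligands higher in FFD mice, blue the 1 lower, Cxcl10, and gray the 15 that did not pass.

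Of the CXC ligands that attract neutrophils 4 were tested, and 2 of them, Cxcl2 and Cxcl1, rose in FFD mice. The share was 50%, where 18.2% of all genes were higher. All 4 had positive log2 fold changes, although that of Cxcl5 was -0.63 with the marker covariate. Cxcl2, a ligand of Cxcr2, had 3.10, 6.20 and 11.6 CPM (lowest, median and highest) in FFD mice, against 2.07, 1.26, 2.53, 3.25 and 2.54 CPM in CD mice. Only the lowest FFD mouse fell below the highest CD mouse. The difference was 1.48 on the log2 scale (SE 0.31, adjusted p = 0.0036 in edgeR), and it passed with any 1 of the 11 mice left out.

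Cxcl1, likewise a ligand of Cxcr2 and made by epithelial cells, had 5.79, 10.6 and 20.8 CPM in FFD mice, against 7.56, 5.62, 9.04, 3.74 and 6.80 CPM in CD mice. FFD mouse 4 was far above the rest and FFD mouse 1 lay among the CD mice. This made a log2 fold change of 0.80 (SE 0.28, adjusted p = 0.041 in edgeR). This call was kept only when CD mouse 3, FFD mouse 1 or FFD mouse 5 was the one left out. Over all alternatives its adjusted p ran between 0.011 and 0.30.

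Cxcl5, per kilobase the most abundant of these ligands, did not pass. It had 11.3, 21.3 and 49.6 CPM in FFD mice, against 5.89, 5.18, 27.8, 15.9 and 20.2 CPM in CD mice. FFD mouse 5 had the highest value, and 3 CD mice lay within the FFD range. FFD over CD gave a log2 fold change of 0.68 (SE 0.46, adjusted p = 0.26 in edgeR), which was 0.32 without FFD mouse 5 and 1.02 without CD mouse 3. Cxcl3 was rare, at 0.240 to 1.48 CPM in FFD mice and 0.0380 to 0.532 CPM in CD mice, and its log2 fold change of 1.43 (SE 0.54) had an adjusted p of 0.052 in edgeR. It passed in DESeq2, with RLE size factors, and in edgeR when the mouse left out was CD mouse 3 or number 1 or 3 of the FFD mice. Cxcl15, known from mouse lung, had 0 counts over the FFD mice and 2 over the CD mice.

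Of the 6 neutrophil markers tested 3 were higher in FFD mice, namely Ly6g (153 ± 64.1 CPM in FFD mice and 33.5 ± 16.3 in CD mice), Ltf and S100a8, where 18.2% of all genes were higher. Epithelial cells can also express Ly6g and Ltf, and the summed neutrophil markers overlapped between the diets with and without these genes. S100a9, Csf3r and Lcn2 did not pass. Cxcr2, the receptor of these ligands, had 35 counts over the FFD mice and 38 over the CD mice and was not tested. The part of neutrophils in the levels of Cxcl1, Cxcl2, Cxcl3 and Cxcl5 was not tested.

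Of the 3 ligands of Cxcr3 1 fell and 0 rose (0 rose at an unadjusted p under 0.05 in edgeR or in DESeq2). The share that passed was 33.3%, against 36.8% of all genes in either direction and 18.6% that were lower. Cxcl10 fell, with 4.24, 5.21 and 10.5 CPM in FFD mice, against 7.56, 6.55, 12.3, 27.6 and 12.7 CPM in CD mice. All FFD mice except FFD mouse 3 lay below every CD mouse, and CD mouse 4 stood far above the others. In the fit the log2 fold change was -1.16 (SE 0.35, adjusted p = 0.020 in edgeR). Without CD mouse 4 it was -0.70 with an adjusted p of 0.066, the range over all alternatives being 0.0060 to 0.23. Exons of Cxcl10 overlap those of Art3 on the opposite strand. Art3 had 0.378 ± 0.170 CPM in FFD mice and 0.553 ± 0.127 CPM in CD mice and did not pass.

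Cxcl9, induced by interferon gamma, had 7.25, 16.1 and 23.1 CPM in FFD mice, against 10.8, 13.4, 19.5, 31.2 and 15.7 CPM in CD mice. The diets overlapped over most of their range. Cxcl9 had a log2 fold change of -0.26 (SE 0.29, adjusted p = 0.50 in edgeR). Cxcl11 had 0.806, 1.39 and 2.003 CPM in FFD mice, against 1.11, 0.540, 1.73, 2.33 and 2.01 CPM in CD mice, which again overlapped. For Cxcl11 the log2 fold change was -0.19 (SE 0.34, adjusted p = 0.70 in edgeR), and GENCODE lists the mouse gene as a polymorphic pseudogene. Without CD mouse 4, which was highest of the CD mice for all 3 ligands, the log2 fold changes of Cxcl9 and Cxcl11 were 0.031 and 0.018.

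The other CXC ligands with enough reads both rose, where 18.2% of all genes were higher. Cxcl16, a membrane-bound chemokine that also binds oxidized lipoprotein and whose receptor is Cxcr6, had 7.77, 10.996 and 13.5 CPM in FFD mice, against 7.80, 3.56, 5.10, 5.65 and 8.01 CPM in CD mice. Only FFD mouse 1 lay within the CD range. It rose by 0.89 on the log2 scale (SE 0.20, adjusted p = 0.0056 in edgeR) and passed with any single mouse left out. Exons of Zmynd15, on the opposite strand, overlap Cxcl16, and Zmynd15 had too few reads to be tested.

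Cxcl13, the B cell attractant of lymphoid follicles, had 0.537, 1.06 and 1.68 CPM in FFD mice, against 0.478, 0.144, 0, 0.361 and 0.797 CPM in CD mice. CD mouse 5 reached into the FFD range and CD mouse 3 had no read. Cxcl13 rose by 1.61 on the log2 scale (SE 0.54, adjusted p = 0.031 in edgeR), on 140 counts over the FFD mice and 48 over the CD mice. Leaving out number 2 or 4 of the CD mice or number 2 or 5 of the FFD mice ended the call, with an adjusted p of 0.061 to 0.068 (0.0082 to 0.73 over all alternatives). Cxcl12 (9 counts over the FFD mice and 9 over the CD mice), Cxcl14 (1 and 0) and Cxcl17 (15 and 2) were not tested.

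**Figure D3:**
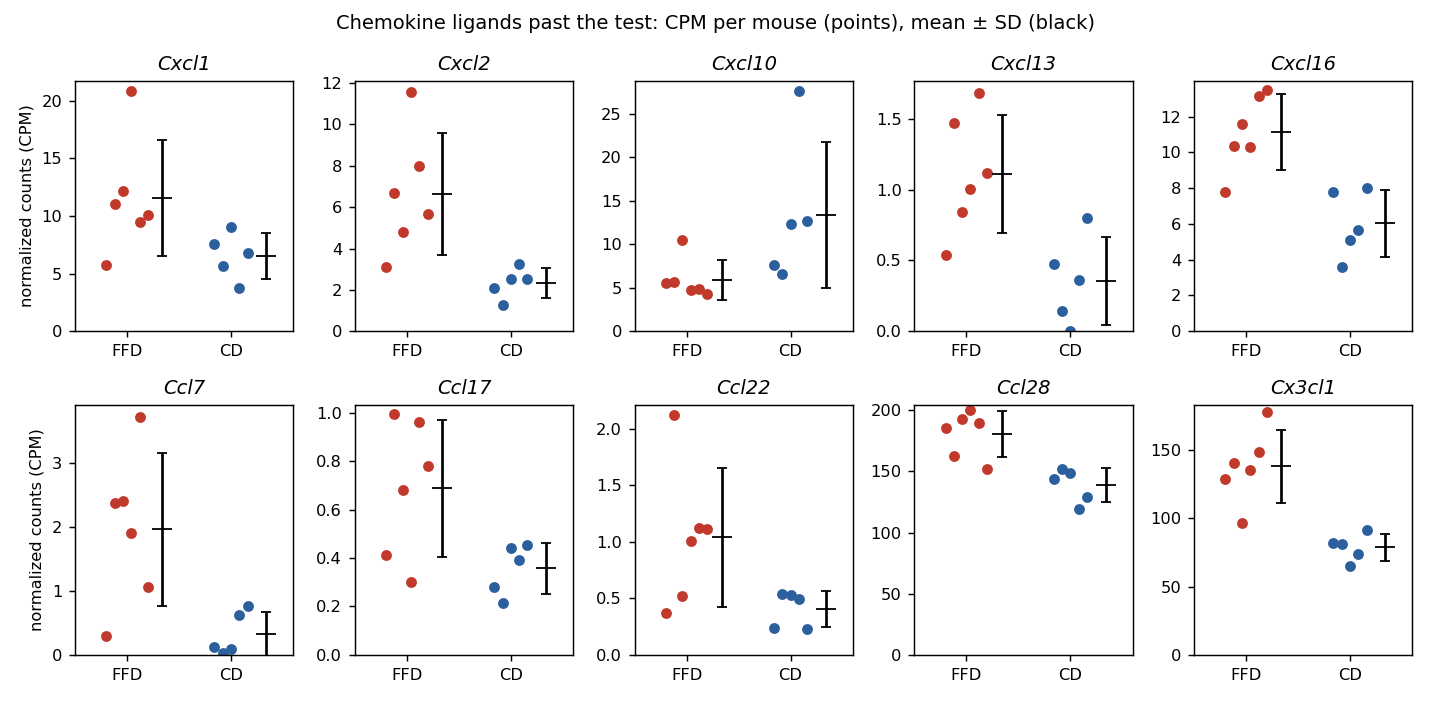
CPM of the 10 chemokine ligands that passed the test, with 1 point per mouse (FFD red, n = 6, and CD blue, n = 5) and the mean ± SD in black, cut at 0 where the SD exceeds the mean. Cx3cl1 is the ligand without overlap, and the single highest point for Cxcl10 is CD mouse 4 at 27.6 CPM.

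Among CC ligands that act on monocytes, macrophages and eosinophils, 1 of 8 tested passed, which is 12.5%, against 36.8% of all genes. This ligand was higher, where 18.2% of all genes were higher. Ccl7, a monocyte attractant acting through Ccr1, Ccr2 and Ccr3, had 0.289, 2.15 and 3.73 CPM in FFD mice, against 0.119, 0.0360, 0.0886, 0.624 and 0.760 CPM in CD mice. FFD mouse 1 lay among the CD mice and the other 5 FFD mice lay above them. The log2 fold change was 2.55 (SE 0.68, adjusted p = 0.011 in edgeR), the largest of the 25 ligands, on 253 counts over the FFD mice and 45 over the CD mice. It passed with any single mouse left out.

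Its neighbors Ccl2 and Ccl8, which also attract monocytes, had positive values that did not pass. Ccl8 had 0.961, 2.55 and 8.93 CPM in FFD mice, against 0.916, 0.720, 2.48, 2.99 and 1.63 CPM in CD mice, with FFD mice 2 and 5 well above the remaining mice. For Ccl8 the log2 fold change was 1.13 (SE 0.53, adjusted p = 0.11 in edgeR). It was 0.66 without FFD mouse 5, and it passed without FFD mouse 3 (adjusted p = 0.040 in edgeR, 0.040 to 0.61 over all alternatives). Ccl2, the main ligand of Ccr2, had 0.289 to 1.32 CPM in FFD mice and 0.0720 to 0.460 CPM in CD mice, with a log2 fold change of 1.08 (SE 0.46, adjusted p = 0.081 in edgeR, and 0.045 without FFD mouse 1, with 0.045 to 0.89 over all alternatives).

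Ccl6, a ligand of Ccr1 found in rodents, was the most abundant chemokine. It had 333, 360 and 464 CPM in FFD mice, against 310, 371, 235, 324 and 286 CPM in CD mice. FFD mouse 6 was highest and CD mouse 2 lay within the FFD range, while the other 4 CD mice lay below all FFD mice. Ccl6 had a log2 fold change of 0.29 (SE 0.11, adjusted p = 0.060 in edgeR) and passed without CD mouse 2. Ccl9, its relative in the same gene cluster and likewise a ligand of Ccr1, had 14.1, 17.8 and 21.4 CPM in FFD mice, against 19.7, 24.6, 22.2, 19.0 and 16.7 CPM in CD mice. Here the diets overlapped, and the log2 fold change was -0.20 (SE 0.13, adjusted p = 0.24 in edgeR). Without TMM scaling Ccl9 passed as lower, at -0.35, in a setting where the median of all genes shifted to -0.19.

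Ccl3, Ccl4 and Ccl5, which attract monocytes and lymphocytes, did not pass. Ccl3 had 0.167 to 0.692 CPM in FFD mice and 0.342 to 1.02 CPM in CD mice (log2 fold change -0.40, SE 0.40, adjusted p = 0.45 in edgeR). Ccl4 had 0.101 to 0.781 CPM in FFD mice and 0.318 to 1.35 CPM in CD mice (-0.46, SE 0.44, adjusted p = 0.43 in edgeR). CD mouse 4, highest for Cxcl9, Cxcl10 and Cxcl11, was also the highest CD mouse for Ccl3 and Ccl4, and without it their log2 fold changes were -0.016 and -0.074. Ccl5, made by NK cells and other lymphocytes, had 0.641 to 1.12 CPM in FFD mice and 0.665 to 1.33 CPM in CD mice (-0.079, SE 0.25, adjusted p = 0.83 in edgeR). The eosinophil attractants Ccl11 (1 count over the FFD mice and 11 over the CD mice), Ccl24 (10 and 7) and Ccl26 (2 and 3), and the monocyte attractant Ccl12 (17 and 6), were not tested.

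Among 18 macrophage and monocyte markers tested FFD mice had 6 higher and 0 lower (also 0 lower at an unadjusted p under 0.05 and in DESeq2). The share higher was thus 33.3%, where 18.2% of all genes were higher and 36.8% passed in either direction. Mrc1 had 4.11 ± 0.969 CPM in FFD mice and 1.40 ± 0.242 in CD mice. C1qa had 1.43 ± 0.285 CPM in FFD mice and 1.35 ± 0.203 in CD mice, with an adjusted p of 0.78 in edgeR. The part of macrophages in the levels of Ccl2, Ccl7 and Ccl8 was not tested.

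Ligands for lymphocytes and dendritic cells included 3 that rose of 6 tested, or 50%, where 18.2% of all genes were higher. All 6 had positive values, that of Ccl27a turning negative without TMM scaling. Ccl28, a mucosal chemokine of epithelial cells that attracts antibody-producing cells through Ccr10, had 152, 187 and 200 CPM in FFD mice, against 143, 152, 149, 119 and 129 CPM in CD mice. Only FFD mouse 6 fell within the CD range, just below CD mouse 2. Ccl28 rose by 0.38 on the log2 scale (SE 0.088, adjusted p = 0.0058 in edgeR), and it passed with any single mouse left out. Without TMM scaling it was 0.23 with an adjusted p of 0.084, the range over all alternatives being 0.00028 to 0.084.

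Ccl17 and Ccl22 are ligands of Ccr4 made chiefly by dendritic cells and macrophages, and both were rare. Ccl22 had 0.372, 1.06 and 2.12 CPM in FFD mice, against 0.239, 0.540, 0.532, 0.493 and 0.228 CPM in CD mice. FFD mouse 2 was highest, and FFD mice 1 and 3 lay within the CD range. The log2 fold change was 1.34 (SE 0.43, adjusted p = 0.028 in edgeR) and leaving out number 1 or 5 of the CD mice or number 2 of the FFD mice ended the call (adjusted p of 0.011 to 0.88 over all alternatives). Ccl17 had 0.302, 0.731 and 0.995 CPM in FFD mice, against 0.279, 0.216, 0.443, 0.394 and 0.456 CPM in CD mice. FFD mice 1 and 4 lay within the CD range and the other 4 above it. Its log2 fold change was 0.98 (SE 0.33, adjusted p = 0.033 in edgeR), and leaving out number 1, 2 or 4 of the CD mice or 2, 5 or 6 of the FFD mice ended the call (adjusted p of 0.019 to 0.80 over all alternatives). Of the 5 dendritic cell markers tested 1 was higher in FFD mice, or 20%, where 18.2% of all genes were higher. This was Itgax, at 3.70 ± 0.633 CPM in FFD mice against 2.51 ± 0.352 in CD mice. Ccr7 (log2 fold change 0.66), Irf8 (0.13), Flt3 (0.029) and Zbtb46 (0.028) did not pass. The part of dendritic cells was not tested.

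Ccl20, the epithelial ligand of Ccr6, had 2.25, 7.41 and 14.8 CPM in FFD mice, against 3.26, 1.94, 8.69, 3.15 and 4.63 CPM in CD mice. FFD mice 3 and 4 were highest, CD mouse 3 lay above 4 of the FFD mice, and the diets overlapped. Its log2 fold change was 0.99 (SE 0.45, adjusted p = 0.10 in edgeR), and it passed without CD mouse 3 or FFD mouse 2. Ccl25, the ligand of Ccr9, had 5.36, 5.74 and 7.58 CPM in FFD mice, against 6.69, 4.36, 5.32, 5.48 and 5.05 CPM in CD mice, with overlap and a log2 fold change of 0.18 (SE 0.13, adjusted p = 0.30 in edgeR). Exons of Ccl25 overlap those of Elavl1 on the opposite strand, which had 77.2 ± 6.91 CPM in FFD mice and 87.2 ± 3.45 CPM in CD mice.

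Ccl27a, known as a ligand of Ccr10 in skin, had 0.801, 1.06 and 1.68 CPM in FFD mice, against 1.31, 1.01, 1.06, 1.02 and 1.06 CPM in CD mice. Its log2 fold change was 0.034 (SE 0.22, adjusted p = 0.92 in edgeR), and its reads are uncertain, since a near-identical copy, Ccl27b, and overlapping exons of Il11ra1 exist. The Ccr7 ligands of lymphoid tissue had few or no reads counted: Ccl19 had 0 counts in all mice, Ccl21a 0 over the FFD mice and 2 over the CD mice, and Ccl21b 1 over the FFD mice and 0 over the CD mice. Ccl27b had 0 counts in all mice, and Ccl1, the ligand of Ccr8, had 20 counts over the FFD mice and 32 over the CD mice. A count of 0 in a library allows for up to 3 counts. The symbols Ccl19, Ccl21a and Ccl21b have 2, 2 and 3 annotated copies, and how reads with several matches were treated is not known, so the counts of these genes and of Ccl27b are uncertain and do not show that the mRNA was absent. None of these 5 genes was tested.

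Cx3cl1 gave the smallest p-value of the ligands. This CX3C chemokine, fractalkine, is anchored in the membrane of epithelial cells by a mucin stalk and binds Cx3cr1 on macrophages. It had 96.5, 138 and 177 CPM in FFD mice, against 82.0, 80.9, 65.1, 73.9 and 91.3 CPM in CD mice. Every FFD mouse lay above every CD mouse, the nearest being FFD mouse 3 and CD mouse 5. The log2 fold change was 0.81 (SE 0.13, adjusted p = 0.0013 in edgeR) and stayed between 0.72 and 0.91 with any single mouse left out. It passed under every alternative except the marker covariate, where it was 0.47 with an adjusted p of 0.21 (range over all alternatives 2.3e-07 to 0.21).

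Xcl1, the C chemokine made by NK and T cells, had 0.703, 0.965 and 1.44 CPM in FFD mice, against 0.916, 1.15, 1.15, 1.28 and 1.18 CPM in CD mice. The values overlapped, with a log2 fold change of -0.17 (SE 0.22, adjusted p = 0.56 in edgeR). Its exons overlap Gm20743 on the opposite strand.

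Single mice led across several ligands. FFD mouse 5 was the highest FFD mouse for 9 of the 25 tested ligands and FFD mouse 6 for 6, whereas FFD mouse 1 was the lowest for 9. CD mouse 4 was the highest CD mouse for 9 ligands and CD mouse 2 the lowest for 12. The mice that led differed by gene, with FFD mouse 4 highest for Cxcl1 and Cxcl2, FFD mouse 5 for Cxcl3, Cxcl5, Ccl7 and Ccl8, and FFD mouse 6 for Ccl6, Cx3cl1 and Cxcl16.

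**Figure D4:**
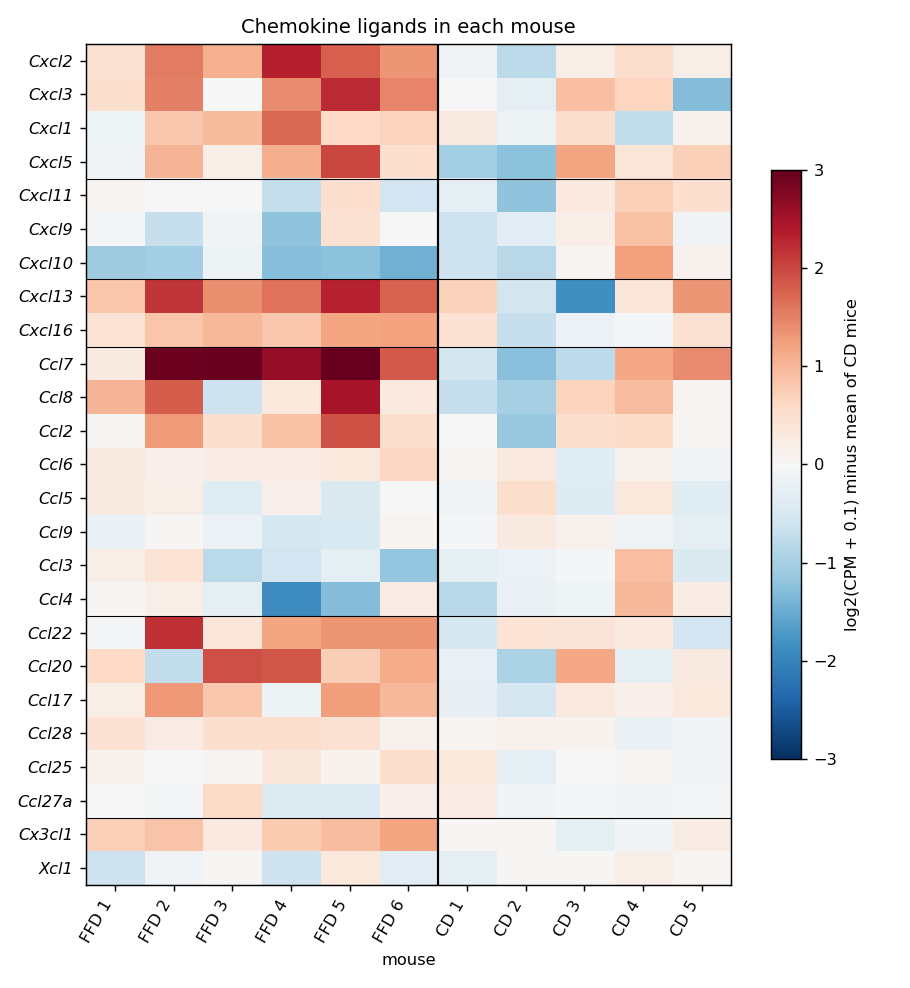
Log2(CPM + 0.1) of the 25 tested chemokine ligands in each mouse minus the mean of the 5 CD mice, with FFD mice on the left, ligands grouped by role between the lines and colors ending at -3 and 3. The ELR CXC ligands, Cxcl13, Cxcl16, Ccl7 and Cx3cl1 are mostly red in FFD mice, and Cxcl10 is blue in all FFD mice, palest in FFD mouse 3.

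Many chemokine genes lie in clusters that arose by duplication, and 22 of the 35 ligands with a unique position in GENCODE M21 (GRCm38) lay in 5 of them with at least 3 members. In the ELR cluster at chr5:90759360-90905938 (146579 bases with Cxcl5, Cxcl3, Cxcl15, Cxcl1 and Cxcl2) all 4 tested genes had positive log2 fold changes (Cxcl5 not with the marker covariate) and 2 passed. In the Cxcr3 ligand cluster on the same chromosome, chr5:92321347-92365485 (44139 bases with Cxcl9, Cxcl10 and Cxcl11), all 3 were negative and 1 passed, though Cxcl9 and Cxcl11 turned positive without CD mouse 4 and Cxcl11 also with a replicate block (0.010). At chr8:94745590-94812036 (66447 bases) Ccl22, Cx3cl1 and Ccl17 stand side by side and all 3 passed as higher. With 1 of the 11 mice left out Ccl22 passed in 8 fits and Ccl17 in 5. Both had a log2 fold change of 0.22 with the marker covariate, where none of the 3 passed. Outside the clusters Cxcl13 (chr5:95956951-95961068), Cxcl16 (chr11:70453983-70459984) and Ccl28 (chr13:119623819-119654359) passed as higher.

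The CC genes of chromosome 11 fall into a pair of clusters, where 36.8% of all genes tested passed and 18.2% were higher. In the monocyte attractant cluster at chr11:82035571-82305690 (270120 bases with Ccl2, Ccl7, Ccl11, Ccl12, Ccl8 and Ccl1) the 3 tested genes were positive (Ccl2 and Ccl8 negative with the marker covariate) and Ccl7 passed. In the cluster at chr11:83525778-83664683 (138906 bases with Ccl5, Ccl9, Ccl6, Ccl3 and Ccl4) 0 of 5 passed in edgeR, 1 of the 5 (Ccl6) was positive and had an unadjusted p of 0.024, and Ccl6 passed in DESeq2. Neighbors within a cluster are not independent of one another, and no difference between clusters was tested.

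**Figure D5:**
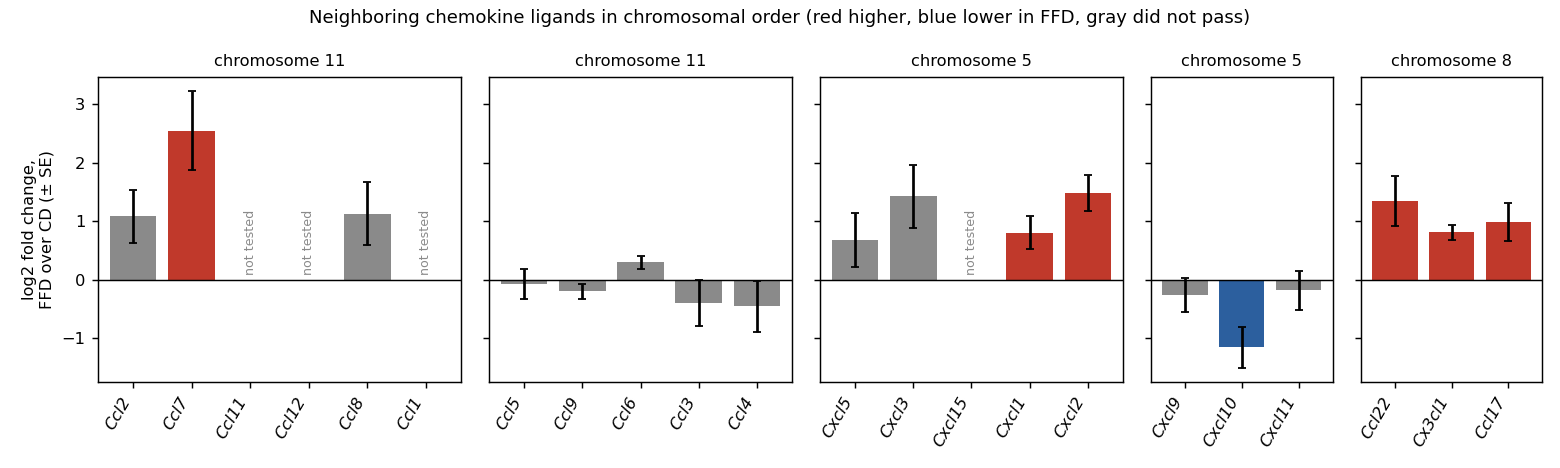
Log2 fold change (FFD over CD, with standard error) of chemokine ligands in chromosomal order within the 5 clusters of at least 3 members, not to scale in distance. Red bars passed as higher, the blue bar, Cxcl10, as lower, gray bars did not pass and untested genes are named without a bar.

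Receptors for these ligands were scarce, and 13 of 24 listed were tested. Of the tested receptors 7.69% passed, against 36.8% of all genes in either direction and 18.6% that were lower. Ackr3, an atypical receptor that takes up Cxcl11 and Cxcl12, was the single receptor to pass and was lower, at 0.298 ± 0.191 CPM in FFD mice and 1.04 ± 0.577 CPM in CD mice (log2 fold change -1.70, SE 0.45, adjusted p = 0.011 in edgeR). None rose after adjustment in edgeR or in DESeq2, and Ccr2 and Ccr7 were higher at an unadjusted p under 0.05. The next smallest p-values were those of Ccr2 (log2 fold change 0.66), Ccr7 (0.66), Ccr1 (0.64) and Ccrl2 (0.42), with adjusted p from 0.087 to 0.13 in edgeR. The ligands known under other names were Pf4 (0.73, adjusted p = 0.076 in edgeR) and Ppbp, which had 8 counts in all.

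Among 9 tested genes that cleave or hold chemokines, 1 was higher and 1 lower, so that 22.2% were called, against 36.8% of all genes. Adam10, the protease that sheds Cx3cl1 and Cxcl16 from the membrane, had 214 ± 26.4 CPM in FFD mice and 158 ± 10.03 CPM in CD mice (log2 fold change 0.43, SE 0.088, adjusted p = 0.0031 in edgeR), and the diets did not overlap. Mmp7, which in mice releases syndecan-bound Cxcl1, fell to 1.92 ± 0.592 CPM in FFD mice, against 4.93 ± 0.731 CPM in CD mice (-1.32, SE 0.20, adjusted p = 0.0011 in edgeR). Sdc1, the syndecan itself (0.24), Mmp12 (0.81) and Adam17 (0.10) had adjusted p between 0.073 and 0.22 in edgeR.

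Lists of NF-kappaB, receptor and interferon gamma response genes held more genes that rose than fell. Of all genes 18.2% were higher and 18.6% lower. Of 16 NF-kappaB targets and feedback genes 10 rose in FFD mice and 0 fell, with a median log2 fold change of 0.34 (0 were lower at an unadjusted p under 0.05 and in DESeq2). They included Tnip3 (106 ± 23.7 CPM in FFD mice and 47.8 ± 11.6 in CD mice, log2 fold change 1.15), Birc3 (0.57), Zc3h12a (0.93), Tnip1 (0.36) and Nfkb2 (0.35). The 15 epithelial markers had a like count, with 10 higher and 0 lower (also 0 lower at an unadjusted p under 0.05 and in DESeq2) and a median log2 fold change of 0.32. Among 17 receptors and adaptors of cytokines and microbial products that induce chemokines, 7 were higher and 2 lower, with Il22ra1 (0.86), Tlr3 (0.72), Tlr4 (0.63) and Il10rb (0.44) higher and Nod1 lower at -0.76.

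Of 23 genes listed for the interferon gamma response 7 rose in FFD mice and 0 fell, with a median log2 fold change of 0.32 (0 were lower at an unadjusted p under 0.05 and in DESeq2). The share higher was thus 30.4%, where 18.2% of all genes were higher and 36.8% passed in either direction. Ifngr1, the receptor chain that binds interferon gamma, had 306 ± 51.7 CPM in FFD mice and 185 ± 18.3 CPM in CD mice, a log2 fold change of 0.72. Jak2 (0.45), Jak1 (0.36), Ifngr2 (0.32) and Irf9 (0.40) also passed, with adjusted p from 0.0013 to 0.011 in edgeR. Cxcl10, which interferon gamma induces, had a log2 fold change of -1.16.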

How the data were processed

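Colonic epithelial cells were isolated by the authors with DTT, EDTA and a Percoll gradient, and poly(A) RNA gave 1 library per mouse. The authors sequenced single reads of 59 bases, mapped them to GRCm38 (CLC Workbench 10.0.1) and deposited raw counts of reads per gene. FastQC, DESeq2 1.22.2 and R 3.5.1 stand in the submitters' processing notes. Annotation release, use of strand, handling of reads with several matches: not given in the sources used here.

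Low counts were removed by filterByExpr (at least 10 counts, total 15) in edgeR 4.0.16 under R 4.3.3, leaving 15044 of 52550. After TMM scaling (factors 0.893 to 1.05 in FFD mice, 1.03 to 1.08 in CD mice), diet was tested over 6 FFD and 5 CD mice with the quasi-likelihood test and Benjamini-Hochberg adjustment at 0.05. No 2 libraries of a diet agreed within sampling noise (lowest chi-square per degree of freedom 11.1). Alternatives were DESeq2 1.42.0, limma-voom (limma 3.58.1), other scalings and filters, a replicate block, a marker covariate, thinning and leaving out each mouse. The test was checked on simulated data.

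The members, lists and tests were chosen with earlier results of these data known. Ligands that passed or averaged at least 1 CPM in either diet are given per mouse, others by range or count, and up to 5 genes of each other list by smallest p. Cell type markers named singly, and Cxcr2, were picked with their values in view. Positions come from GENCODE M21 (35 of 38 symbols with 1 match).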

Additional observations from a re-analysis of the deposited data

Results flagged for a closer look

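Each of the 25 tested ligands was searched in both diets for a mouse far from the others of its diet, which made 50 groups. By chance about 1 in 20 groups shows such a mouse, and 4 did. Cxcl10 in FFD mouse 3 was 10.5 CPM, with the next FFD mouse at 5.66 CPM. Ccl6 in FFD mouse 6 was 464 CPM, with the next FFD mouse at 375 CPM. Ccl3 in CD mouse 4 was 1.02 CPM, with the next CD mouse at 0.488 CPM. Ccl27a in CD mouse 1 was 1.31 CPM, with the next CD mouse at 1.06 CPM.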

How the results depend on the processing

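The number of ligands higher in FFD mice, 9, was 11 with DESeq2 and with RLE size factors, 8 without a filter, 7 with limma-voom, 6 without TMM, with a stricter filter (13 ligands tested) and in thinned libraries, 6 to 11 with 1 mouse left out, and 0 with the marker covariate. Ligands lower, 1 (Cxcl10), were 2 without TMM (Cxcl10 and Ccl9), 0 with limma-voom (adjusted p of Cxcl10 0.051) and with the marker covariate, each with 1 at an unadjusted p under 0.05, and 0 to 1 with 1 mouse left out, 0 being without CD mouse 4. With the replicate block 6 were higher and 1 lower (Ccl9). The labels do not say whether same-numbered mice are paired. Such mice correlated at -0.28 to 0.23, and only mice 3 and 5 matched best with their own number. So few mice cannot decide whether they are paired. Without TMM 1636 of all genes were higher and 4863 lower. Cx3cl1, Cxcl2, Cxcl16 and Ccl7 passed in every alternative that tested them except the covariate.

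Log2 fold changes that did not pass turned sign as follows. For Ccl27a they were -0.11 without TMM, -0.048 with the replicate block and -0.12 without FFD mouse 3 (-0.12 to 0.12 with 1 mouse left out). With the covariate they were -0.63 for Cxcl5, -0.18 for Ccl2, -0.61 for Ccl8 and 0.074 for Ccl5. Ccl5 had 0.0012 in thinned libraries, 0.095 without CD mouse 2, 0.013 without CD mouse 4, 0.0053 without FFD mouse 3 and 0.0068 without FFD mouse 5 (-0.16 to 0.095). Cxcl11 had 0.010 with the replicate block and 0.018 without CD mouse 4 (-0.39 to 0.018), and Cxcl9 0.031 without CD mouse 4 (-0.43 to 0.031). The cause was not tested. No called fold change turned sign. With the covariate the other lists had 0 calls. Without TMM 6 NF-kappaB and 4 interferon gamma genes were higher. DESeq2 called 2 processing genes higher. Ackr3 had too few reads to be tested in thinned libraries or with the stricter filter.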

Other observations

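The ratio of Cxcl10 to Cxcl9 counts, a choice made after the values were seen, was 0.211, 0.438 and 0.667 (lowest, median and highest) in FFD mice, against 0.701, 0.489, 0.632, 0.883 and 0.809 in CD mice. The ratio of Cx3cl1 to Ccl6 counts was 0.273, 0.384 and 0.421 in FFD mice, and 0.218, 0.265 and 0.319 in CD mice. Both ranges overlapped between the diets.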
